A study of Mus musculus with 12 samples.

Results

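Bex1, Mrvi1, Bzrap1, Susd1, Chodl, Pla2r1, Pde1b, 4833403I15Rik and Htra3 are 9 little-studied genes of the 20325 in the expression tables. They were picked by symbol because their RNA rose with an inhibitor of DOT1L on day 4 of reprogramming, so their rise with the inhibitor is described below without a test. All 9 of them passed the filter on low counts, as did 13936 genes in all. The 12 RNA-seq libraries come from mouse embryonic fibroblasts (MEFs) and from the same kind of cells after 4 days of conversion towards induced pluripotent stem cells, with 2 libraries in each of 6 groups. Every group carried AF10 fl/fl alleles (floxed Mllt10), an OSKM cassette of the reprogramming factors and rtTA, its doxycycline-dependent activator. MEF_fl cells had an empty adenovirus and MEF_creAF10 cells an adenovirus with Cre recombinase, both under a CMV promoter, and the 2 kinds of cells are called fl and AF10-deleted here, also on day 4. Day4_fl_DMSO and Day4_creAF10_DMSO received doxycycline at 2 µg/mL in DMSO, and Day4_fl_SGC and Day4_creAF10_SGC received it with 5 µM SGC0946, the DOT1L inhibitor. Day 4 cells also differed from MEFs in medium and in growing on DR4 feeder MEFs, whose RNA cannot be told apart from theirs. None of the 6 groups is a Cre control lacking the floxed alleles, so effects of Cre itself and of the deletion cannot be told apart.

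DOT1L is the methyltransferase of lysine 79 on histone H3, a mark that lies over the bodies of transcribed genes, and AF10 is a partner that helps it to place the higher methylation states. Blocking DOT1L is known to ease the conversion of fibroblasts into pluripotent cells, a process in which fibroblast genes are silenced early. The 9 genes have little in common by function: 2 belong to cyclic GMP and calcium signalling, 5 encode proteins of the cell surface or the secreted fraction, and 2 encode intracellular adaptors.

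The start regions of these genes are shown as a description, since their moving together on day 4 follows from how they were picked. The RefSeq promoter table, on build GRCm38.p6, was matched to 7 of the 9 genes, not to Bzrap1 and 4833403I15Rik. Of these, Bex1, Susd1, Chodl, Pla2r1 and Htra3 have 1 annotated start each. Their 250 bases before the start read, 5′ to 3′ along the gene, with capitals for the motifs described next:
Bex1: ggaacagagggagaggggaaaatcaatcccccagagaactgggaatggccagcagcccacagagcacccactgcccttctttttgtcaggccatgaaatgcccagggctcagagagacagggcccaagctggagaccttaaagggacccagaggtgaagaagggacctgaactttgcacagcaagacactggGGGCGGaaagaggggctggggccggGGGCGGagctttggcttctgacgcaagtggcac
Susd1: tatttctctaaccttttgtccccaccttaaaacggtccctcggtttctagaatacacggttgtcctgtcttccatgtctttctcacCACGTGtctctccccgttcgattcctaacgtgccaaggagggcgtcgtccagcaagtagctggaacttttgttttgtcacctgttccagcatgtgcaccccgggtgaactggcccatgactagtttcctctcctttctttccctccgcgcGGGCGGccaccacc
Chodl: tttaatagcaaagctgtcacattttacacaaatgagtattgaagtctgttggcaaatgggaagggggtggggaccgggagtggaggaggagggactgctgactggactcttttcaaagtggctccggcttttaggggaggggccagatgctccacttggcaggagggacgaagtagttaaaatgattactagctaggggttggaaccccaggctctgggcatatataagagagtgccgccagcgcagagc
Pla2r1: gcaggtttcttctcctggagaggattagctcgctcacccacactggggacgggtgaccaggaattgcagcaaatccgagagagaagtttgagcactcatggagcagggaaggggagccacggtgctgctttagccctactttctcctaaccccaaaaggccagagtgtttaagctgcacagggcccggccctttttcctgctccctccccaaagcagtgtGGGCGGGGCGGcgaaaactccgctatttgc
Htra3: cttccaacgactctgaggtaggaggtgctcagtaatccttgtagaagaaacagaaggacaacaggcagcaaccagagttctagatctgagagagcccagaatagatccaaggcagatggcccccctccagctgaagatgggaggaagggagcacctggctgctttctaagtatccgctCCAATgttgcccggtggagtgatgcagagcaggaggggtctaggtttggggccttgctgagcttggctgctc
The windows lie at chrX:136215514-136215763 (minus strand) for Bex1, chr4:59438634-59438883 (minus) for Susd1, chr16:78930698-78930947 (plus) for Chodl, chr2:60553309-60553558 (minus) for Pla2r1 and chr5:35679781-35680030 (minus) for Htra3. Motifs were searched on both strands, namely the TATA box TATAAA, the CCAAT box, the GC box GGGCGG, the E-box CACGTG, the AP-1 site TGANTCA and the octamer ATGCAAAT. The GC box GGGCGG occurred 2 times in Bex1, 2 times in Pla2r1, where the matches overlap by 1 base, and 1 time in Susd1, and 32.7% of the 32851 windows in the table hold it. Susd1 also had 1 CACGTG, present in 6.02% of windows, and Htra3 had 1 CCAAT, present in 33.8%. Chodl had none of the 6 motifs in the spellings searched. Other forms of the TATA box were not searched, and the Chodl window holds tatataag near its end. No motif was thus shared by all 5 windows, and which start the cells used was not measured. CpG dinucleotides were 0.185 of the number expected from base composition in Bex1, 0.164 in Htra3, 0.33 in Chodl, 0.434 in Pla2r1 and 0.833 in Susd1, against a median of 0.374 over all windows, so the 5 starts ranged from CpG-poor to CpG-rich.

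Across the 6 groups the genes followed 2 courses. Mrvi1, Chodl, Pla2r1, Pde1b and Htra3 were high in MEFs, lower on day 4 in DMSO and higher again with SGC0946. Bex1, Bzrap1 and Susd1 were low in MEFs and highest with SGC0946, above the MEF level, and Susd1 was as low in Day4_fl_DMSO as in MEFs. 4833403I15Rik also peaked with SGC0946, but its MEF level depended on the replicate. Levels below are CPM, the count of a gene relative to the TMM-scaled total of its library, on the usual counts-per-million scale.

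**Figure D1:**
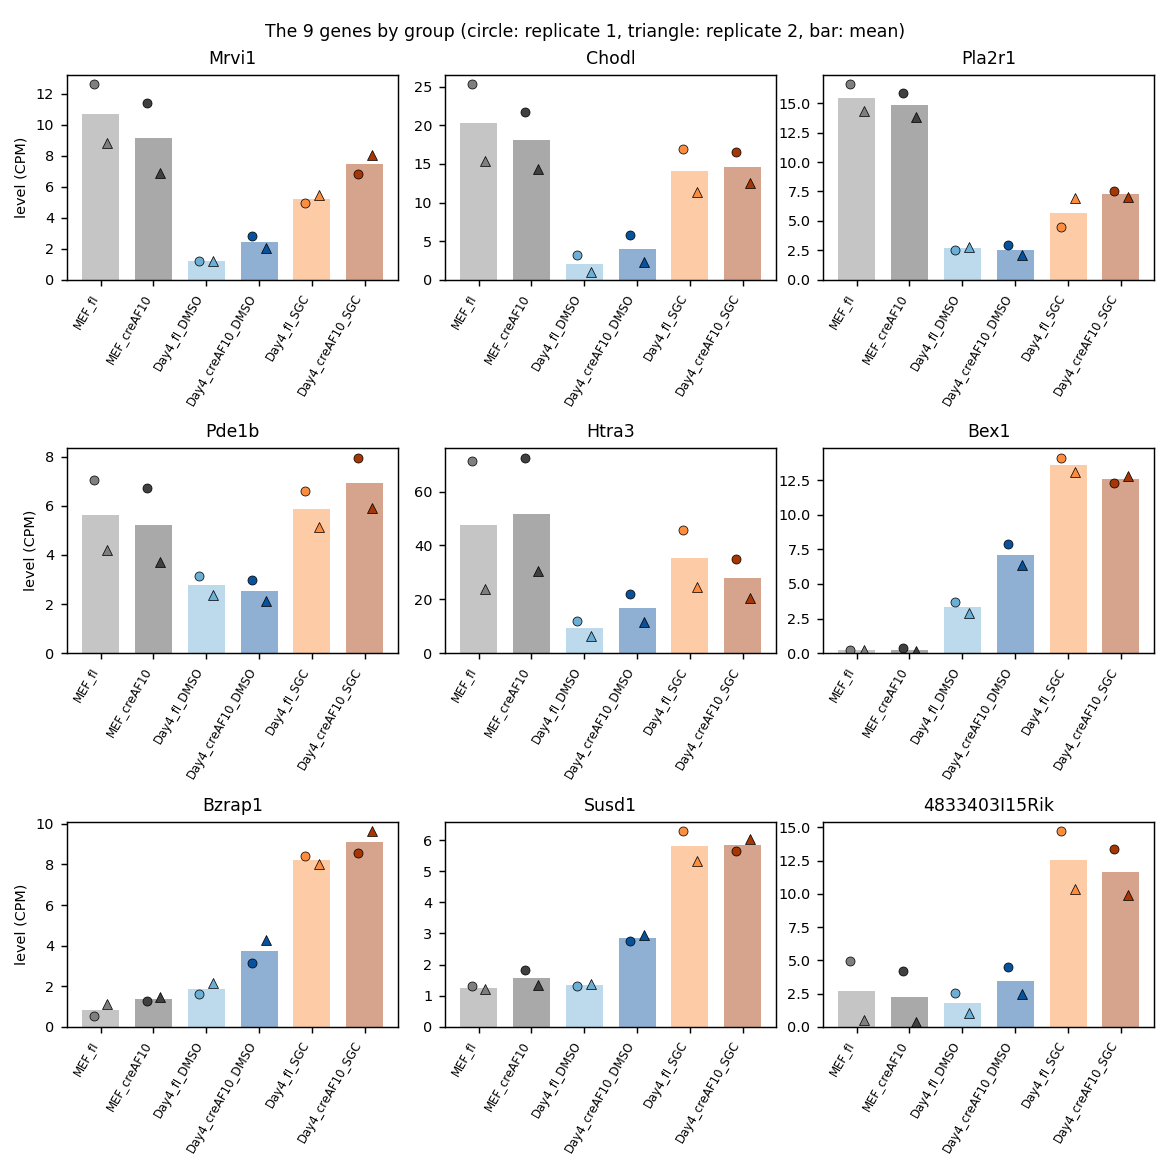
Level in CPM (vertical axis, linear, starting at 0) of the 9 genes in the 6 groups (horizontal axis), with a circle for replicate 1, a triangle for replicate 2 and a bar for their mean. The first 5 genes drop from MEFs to day 4 in DMSO and lie higher in both SGC0946 groups, while Bex1, Bzrap1 and Susd1 have their tallest bars in the SGC0946 groups.

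Mrvi1 encodes the substrate through which cyclic GMP-dependent kinase restrains calcium release at the inositol trisphosphate receptor. It had 12.6 and 8.80 CPM in MEF_fl replicates 1 and 2, 11.4 and 6.91 in MEF_creAF10, 1.21 and 1.24 in Day4_fl_DMSO, 2.84 and 2.07 in Day4_creAF10_DMSO, 4.97 and 5.47 in Day4_fl_SGC, and 6.85 and 8.06 in Day4_creAF10_SGC. The 4 day 4 groups did not overlap each other, in the order fl in DMSO, AF10-deleted in DMSO, fl in SGC0946, AF10-deleted in SGC0946. Pde1b, a phosphodiesterase that calmodulin and calcium switch on to break down cyclic nucleotides, had 7.05 and 4.19 CPM in MEF_fl, 6.74 and 3.73 in MEF_creAF10, 3.16 and 2.38 in Day4_fl_DMSO, 2.97 and 2.12 in Day4_creAF10_DMSO, 6.60 and 5.14 in Day4_fl_SGC, and 7.95 and 5.92 in Day4_creAF10_SGC. Its DMSO libraries were all below its SGC0946 libraries, and the fl and AF10-deleted groups overlapped in DMSO and in SGC0946.

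Chodl encodes chondrolectin, a membrane protein with a C-type lectin domain. It had 25.3 and 15.4 CPM in MEF_fl, 21.7 and 14.4 in MEF_creAF10, 3.16 and 1.05 in Day4_fl_DMSO, 5.74 and 2.35 in Day4_creAF10_DMSO, 16.9 and 11.3 in Day4_fl_SGC, and 16.6 and 12.5 in Day4_creAF10_SGC. All DMSO libraries were below all SGC0946 libraries, and replicate 1 was above replicate 2 in every group. Pla2r1, the receptor for secreted phospholipase A2, had 16.6 and 14.3 CPM in MEF_fl, 15.9 and 13.8 in MEF_creAF10, 2.53 and 2.80 in Day4_fl_DMSO, 2.97 and 2.12 in Day4_creAF10_DMSO, 4.45 and 6.92 in Day4_fl_SGC, and 7.57 and 7.05 in Day4_creAF10_SGC. Even with SGC0946 it stayed below every MEF library.

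Htra3 encodes a secreted serine protease that can restrain TGF-beta signalling. It had 71.5 and 23.9 CPM in MEF_fl, 72.5 and 30.5 in MEF_creAF10, 11.9 and 6.56 in Day4_fl_DMSO, 22.1 and 11.5 in Day4_creAF10_DMSO, 45.9 and 24.6 in Day4_fl_SGC, and 35.0 and 20.5 in Day4_creAF10_SGC. Replicate 1 was the higher in every group, and in AF10-deleted cells the DMSO and SGC0946 groups overlapped. 4833403I15Rik is listed by RefSeq as Lvrn, laeverin, a membrane aminopeptidase, and had 4.92 and 0.485 CPM in MEF_fl, 4.18 and 0.368 in MEF_creAF10, 2.53 and 1.05 in Day4_fl_DMSO, 4.49 and 2.46 in Day4_creAF10_DMSO, 14.7 and 10.4 in Day4_fl_SGC, and 13.4 and 9.95 in Day4_creAF10_SGC. Replicate 1 exceeded replicate 2 in every group, most widely in MEFs.

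Susd1, a membrane protein with sushi domains, had 1.30 and 1.21 CPM in MEF_fl, 1.82 and 1.34 in MEF_creAF10, 1.32 and 1.38 in Day4_fl_DMSO, 2.77 and 2.96 in Day4_creAF10_DMSO, 6.28 and 5.34 in Day4_fl_SGC, and 5.65 and 6.04 in Day4_creAF10_SGC. The AF10-deleted DMSO libraries lay between the fl DMSO and the SGC0946 libraries, with no overlap. Bzrap1, now named Tspoap1, encodes an adaptor that binds RIM proteins and the translocator protein TSPO. It had 0.534 and 1.15 CPM in MEF_fl, 1.28 and 1.47 in MEF_creAF10, 1.61 and 2.15 in Day4_fl_DMSO, 3.17 and 4.30 in Day4_creAF10_DMSO, 8.43 and 8.04 in Day4_fl_SGC, and 8.55 and 9.63 in Day4_creAF10_SGC. It climbed in steps, from MEFs over the DMSO groups to SGC0946, without overlap between fl and AF10-deleted cells on day 4.

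Bex1, a small X-linked adaptor best known from neurons and from signalling of the neurotrophin receptor p75, had 0.237 and 0.243 CPM in MEF_fl, 0.404 and 0.138 in MEF_creAF10, 3.73 and 2.93 in Day4_fl_DMSO, 7.86 and 6.37 in Day4_creAF10_DMSO, 14.1 and 13.1 in Day4_fl_SGC, and 12.3 and 12.8 in Day4_creAF10_SGC. In MEFs these were 3.16 to 5.59 expected counts per library, close to the limit of detection. Its expected count was whole in only 1 of the 12 libraries, so RSEM shared some of its reads with another gene, and its level is uncertain to that extent. Per transcript length, in TPM, Bex1 was the most abundant of the 9 in Day4_fl_SGC with 33.6 ± 1.51 TPM (SD, n = 2), followed by Htra3 with 27.2 ± 11.5 TPM and Chodl with 11.4 ± 3.15 TPM, while Mrvi1 was the lowest with 1.81 ± 0.141 TPM. Bex1 and Htra3 overlapped in this order. In MEF_fl the order began with Htra3, 39.4 ± 26.9 TPM, and Chodl, 17.6 ± 5.73 TPM, which overlapped as well.

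The genes were picked for rising with SGC0946 on day 4, without a limit to fl cells. Values of SGC0946 against DMSO thus describe the choice, in fl and in AF10-deleted cells. In fl cells the log2 change was lowest in Pla2r1, 1.09 ± 0.24 (SE, n = 2 per group), and Pde1b, 1.09 ± 0.37. It was highest in Chodl, 2.77 ± 0.58, and 4833403I15Rik, 2.83 ± 1.07, with a median of 2.09. Bex1, Mrvi1, Bzrap1 and Susd1 were close together at 2.03, 2.09, 2.12 and 2.10, and Htra3 had 1.95. The fl groups did not overlap in any of the 9 genes, as was so for 23.4% of all tested genes in that direction. In AF10-deleted cells the same contrast gave a log2 change of 0.74 ± 0.68 in Htra3, 0.82 ± 0.23 in Bex1 and 1.02 ± 0.22 in Susd1, up to 1.76 ± 1.01 in 4833403I15Rik and 1.86 ± 0.55 in Chodl, with a median of 1.45. There 8 of the 9 did not overlap, Htra3 being the exception, against 19.4% of all tested genes. Pla2r1 and Pde1b had larger values in AF10-deleted cells, 1.53 and 1.45, than in fl cells, and the other 7 had smaller ones. The difference between the cells was not tested because it uses the contrasts that picked the genes.

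Deleting AF10 in MEFs shares no library with those contrasts. The targeted gene Mllt10 had 43.1 and 45.4 CPM in MEF_fl and 35.4 and 34.4 in MEF_creAF10, and on day 4 it had 40.5 to 44.2 CPM in the AF10-deleted and 54.1 to 61.4 CPM in the fl libraries. Its RNA was thus present in every library, and values per gene do not show which part of it was deleted. None of the 9 genes was called in either direction (edgeR's quasi-likelihood test, adjusted p under 0.05 by Benjamini-Hochberg), where the background was 0% of all genes, and 0 of 9 had an unadjusted p under 0.05. A fit that pairs the libraries by replicate number within each stage, called the paired fit, also called 0 of 9, where 0.122% of all genes were called higher and 0.84% lower, and DESeq2 called 0 of 9, with a background of 0.00928% higher and 0.176% lower. The log2 changes ran from -0.34 ± 1.12 (SE, n = 2 per group) in 4833403I15Rik to 0.71 ± 0.36 in Bzrap1, with a median of -0.06 against -0.0039 over all genes. In Bzrap1 and in Susd1 both AF10-deleted libraries lay above both fl libraries, as in 9.77% of all genes, and in none of the 9 below, as in 10.8%.

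On day 4 in DMSO, 7 of the 9 genes had higher mean levels after AF10 deletion, by a log2 change of 0.86 to 1.09, and Pla2r1 and Pde1b did not. The fit without pairing called 0 of 9, with 0% of all genes called, though 4 had an unadjusted p under 0.05 (edgeR quasi-likelihood test), as they did in DESeq2, which called 0 of 9 after adjustment (background 0.0923% higher and 0.041% lower). Those 4, Bex1, Mrvi1, Bzrap1 and Susd1, were also the ones whose AF10-deleted libraries both lay above both fl libraries, as in 20.1% of all genes, and 0 of 9 lay below, as in 20.3%. The share of all genes with an unadjusted p under 0.05 is not given, here or below. Counts at that limit are therefore no result about the genes counted. The paired fit called 7 higher, against 3.37% of all genes. Bex1 rose by 1.10 ± 0.18 (SE, n = 2 per group, adjusted p = 0.000325), Susd1 by 1.08 ± 0.25 (adjusted p = 0.0079), Mrvi1 by 0.99 ± 0.26 (adjusted p = 0.0202) and Bzrap1 by 0.98 ± 0.23 (adjusted p = 0.00823). 4833403I15Rik rose by 0.98 ± 0.23 (adjusted p = 0.0108), Chodl by 0.96 ± 0.25 (adjusted p = 0.0265) and Htra3 by 0.85 ± 0.12 (adjusted p = 4.6e-05). Each of these 7 was higher in both replicate pairs. Pla2r1 had -0.08 ± 0.24 (adjusted p = 0.887), with log2 ratios of 0.23 and -0.40 in replicates 1 and 2, and Pde1b -0.13 ± 0.21 (adjusted p = 0.793). The Day4_fl_DMSO and Day4_creAF10_DMSO libraries are also the baselines of the contrasts that picked the genes. A low value in Day4_fl_DMSO raises the change with AF10 deletion as well, and a low value in Day4_creAF10_DMSO lowers it. The count of 7 fell to 4 without Day4_fl_DMSO replicate 1, to 2 without Day4_fl_DMSO replicate 2 and to 4 without Day4_creAF10_DMSO replicate 1.

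**Figure D2:**
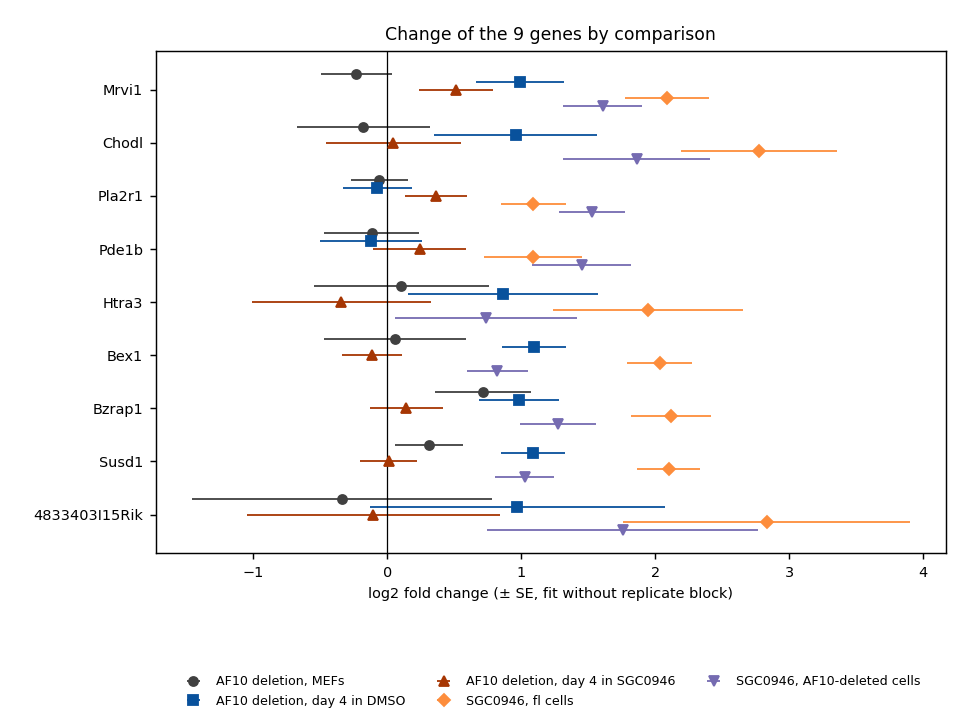
Log2 fold change with its SE (horizontal axis) of each of the 9 genes (vertical axis) for AF10 deletion in MEFs, on day 4 in DMSO and on day 4 in SGC0946, and for SGC0946 in fl and in AF10-deleted cells, all from the fit without pairing. For AF10 deletion 7 genes lie at 0.86 to 1.09 in DMSO, while all 9 lie between -0.34 and 0.71 in MEFs and between -0.34 and 0.51 in SGC0946.

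With SGC0946 present, AF10 deletion gave log2 changes from -0.34 in Htra3 to 0.51 in Mrvi1, with a median of 0.05 against 0.00035 over all genes. The Day4_fl_SGC and Day4_creAF10_SGC libraries also belong to the contrasts that picked the genes. A high value in Day4_fl_SGC lowers the change with AF10 deletion, and a high value in Day4_creAF10_SGC raises it. No gene of the 9 was called in the fit without pairing, where 0% of all genes were, in the paired fit, where 0.0718% were called higher and 0.1% lower, or in DESeq2, where 0.0114% were called higher and 0% lower. Unadjusted p under 0.05 occurred for 0 of 9 in the fit without pairing and in DESeq2 and for 3 of 9 in the paired fit. These were Mrvi1 (0.51 ± 0.17, adjusted p = 0.33 in the edgeR quasi-likelihood test), Pla2r1 (0.37 ± 0.18, adjusted p = 0.627) and Htra3 (-0.34 ± 0.09, adjusted p = 0.203).

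Day 4 in DMSO was compared with MEFs of the same cells to place the genes in the course of reprogramming. It shares the DMSO libraries with the contrasts behind the choice. In fl cells 5 of the 9 genes fell, where 26.3% of all genes did: Chodl with a log2 change of -3.30 ± 0.58 (SE, 2 libraries a group, edgeR quasi-likelihood adjusted p = 0.0018), Mrvi1 by -3.12 ± 0.31 (3.38e-05), Pla2r1 by -2.53 ± 0.24 (2.33e-05), Htra3 by -2.38 ± 0.71 (0.0236) and Pde1b by -1.02 ± 0.36 (0.0379). Bex1 rose by 3.75 ± 0.36 (adjusted p = 2.69e-05) and Bzrap1 by 1.16 ± 0.35 (0.0182), where 25.7% of all genes rose. Susd1 had 0.10 ± 0.26 (adjusted p = 0.789) and 4833403I15Rik -0.62 ± 1.12 (adjusted p = 0.67). The paired fit called the same 7, where 33.9% of all genes rose and 34.3% fell. Its block per stage takes up any difference between the replicates in the change from MEFs, so its p-values do not measure that difference. The count of 7 was 4 without MEF_fl replicate 1 or without Day4_fl_DMSO replicate 2.

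In AF10-deleted cells the same 4 genes Mrvi1, Chodl, Pla2r1 and Pde1b fell and Bex1, Bzrap1 and Susd1 rose, against 27.5% of all genes in each direction. Bex1 rose by 4.79 ± 0.34 (edgeR quasi-likelihood adjusted p = 4.18e-06) and Susd1 by 0.88 ± 0.24 (adjusted p = 0.011). Htra3 had -1.62 ± 0.69 (adjusted p = 0.0781), and it was called in the paired fit (-1.56 ± 0.10, adjusted p = 6.55e-14), as was 4833403I15Rik (1.40 ± 0.26, adjusted p = 3.03e-05), where 35.6% of all genes rose and 34.8% fell. The day 4 level of 4833403I15Rik was 107% of the MEF level in replicate 1 and 668% in replicate 2. The SE and p-value of the paired fit do not measure that spread. The count of 7 without pairing was 4 without Day4_creAF10_DMSO replicate 2.

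Day 4 with SGC0946 was set against MEFs to show how the level with the inhibitor compares with the starting cells. It again shares libraries with the contrasts behind the choice. In fl cells Bex1 (log2 change 5.79 ± 0.34, edgeR quasi-likelihood adjusted p = 1.3e-06), Bzrap1 (3.28 ± 0.33, 3.67e-05) and Susd1 (2.20 ± 0.24, 5.85e-05) were above MEFs, where 26.2% of all genes were, and Pla2r1 (-1.44 ± 0.23, 0.000541) and Mrvi1 (-1.03 ± 0.28, 0.0104) were below, where 26.1% were. Chodl (-0.53 ± 0.50), Htra3 (-0.44 ± 0.66), Pde1b (0.06 ± 0.35) and 4833403I15Rik (2.21 ± 1.04) were not called, with adjusted p = 0.406, 0.608, 0.894 and 0.109. In the paired fit Chodl and Htra3 were also below MEFs and 4833403I15Rik above, 8 of 9 in all, against 34.2% higher and 34.1% lower over all genes. 4833403I15Rik was at 299% of its MEF level in replicate 1 and 2140% in replicate 2, a spread that the paired fit does not measure. In AF10-deleted cells Bex1, Bzrap1 and Susd1 were above MEFs (5.61, 2.71 and 1.90) and Pla2r1 below (-1.02 ± 0.22, adjusted p = 0.00339), where 27.2% and 26.6% of all genes were, and the paired fit added Pde1b and 4833403I15Rik above and Htra3 below, where 35.2% and 34.6% were.

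As a share of the MEF level of the same replicate, the 5 genes that are high in MEFs had 6.82% to 56.8% of it in Day4_fl_DMSO and 26.8% to 123% in Day4_fl_SGC. Chodl went from 12.5% and 6.82% in DMSO to 66.8% and 73.4% with SGC0946 in fl cells, and Pla2r1 from 15.2% and 19.6% to 26.8% and 48.4%. Pde1b kept most in DMSO, 44.8% and 56.8%, and was at 93.6% and 123% with SGC0946. Mrvi1 was at 9.6% and 14.1% in DMSO and at 39.4% and 62.2% with SGC0946. In AF10-deleted cells it was at 24.9% and 30.0%, and then at 60.1% and 117%.

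**Figure D3:**
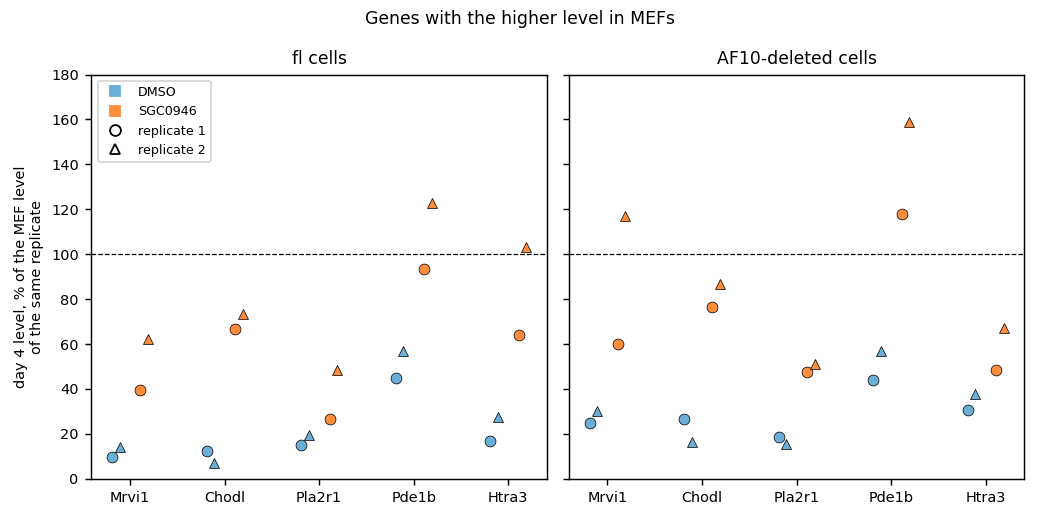
Level on day 4 as a percentage of the level in MEFs of the same replicate number (vertical axis, linear) for the 5 genes that are high in MEFs (horizontal axis), in fl cells (left) and AF10-deleted cells (right), in DMSO or SGC0946, with a circle for replicate 1 and a triangle for replicate 2. Every SGC0946 point lies above the DMSO points of the same gene and cells, and Pla2r1 stays lowest with SGC0946 in fl cells at 26.8% and 48.4%.

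How the genes varied together depended on whether MEFs were included. Over the 8 day 4 libraries Pearson's r of log2 CPM between the 36 pairs of genes ran from 0.667 to 0.995, with a median of 0.902, and Chodl with 4833403I15Rik was the closest pair. Over all 12 libraries it ran from -0.676 to 0.944, with Bex1 and Pla2r1 lowest and Bzrap1 and Susd1 highest. Pairs within Mrvi1, Chodl, Pla2r1, Pde1b and Htra3 had 0.674 to 0.939 and pairs within Bex1, Bzrap1 and Susd1 had 0.835 to 0.944, while the 15 pairs across had -0.676 to 0.403. 4833403I15Rik, in neither set, had 0.659 to 0.828 with Bex1, Bzrap1 and Susd1 and -0.127 to 0.596 with the genes of the first set. The sets were formed from the courses of the genes in these same libraries, so higher values within than across them follow from that. These libraries share treatments and cell sources, and the genes were picked for rising with SGC0946, so the values are a description.

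Among the genes most like the mean of the 9, scaled per gene, over the 12 libraries were Tubb4 (r = 0.97), Slc39a8, a zinc and manganese importer (0.966), the chromatin organiser Satb1 (0.963), Phf15 (0.948), the ketone body enzyme Bdh1 (0.946), the endothelin receptor Ednrb (0.937), Cyp7b1 (0.936), Gucy1b3 (0.936) and Dennd3 (0.934). All of these named genes had positive log2 changes with SGC0946 in fl cells, from 0.68 in Phf15 to 1.77 in Slc39a8. That direction follows from likeness to genes picked for rising with SGC0946, so it is a description. Gene by gene, Bex1 was most like Ctps (r = 0.995) and the glucose transporter Slc2a3 (0.992), Bzrap1 like Syt17 and Ccdc68 (0.985 each), Chodl like Adcy4 (0.983) and Larp6 (0.958), and 4833403I15Rik like Pdgfb (0.978) and Gpr176 (0.976). For Htra3 they were Lingo3 (0.979) and Efs (0.978), for Pla2r1 Papss2 (0.976) and Rab31 (0.965), for Mrvi1 Trim6 (0.975) and Kif1a (0.969), for Susd1 1810011O10Rik (0.967), and for Pde1b Gyg (0.95) and Sh3tc1 (0.94).

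Relatives of the 9 genes were not used in their choice, and their response to SGC0946 was tested. The lists of relatives and partners were, however, chosen with earlier results of these data known, so these tests are not independent of them. Of 21 listed relatives 20 were in the tables and 16 passed the filter. In fl cells 1 of the 16 rose in the fit without pairing, where 0.883% of all genes did, and 9 rose in the paired fit, where 10.6% did. None was lower in either, against 0.23% and 7.1% of all genes, and 8 of the 16 had an unadjusted p under 0.05 (edgeR quasi-likelihood test without pairing). DESeq2 called 1 higher and 0 lower, against 1.5% and 0.585% of all genes. The median log2 change was 0.36 against -0.0085 over all genes. The 1 called without pairing was Bex4, an X-linked relative of Bex1, which had no reads in MEF_fl, 3.10 and 2.43 CPM in Day4_fl_DMSO, 6.40 and 4.19 in Day4_creAF10_DMSO, 9.87 and 9.03 in Day4_fl_SGC, and 9.98 and 10.5 in Day4_creAF10_SGC. It lay above fl DMSO in both AF10-deleted DMSO libraries and higher still with SGC0946, and it changed by 1.78 ± 0.30 with SGC0946 in fl cells (SE, n = 2 per group, edgeR quasi-likelihood adjusted p = 0.0337) and by 0.93 ± 0.20 with AF10 deletion in DMSO in the paired fit (adjusted p = 0.00631). Bex2, named after its values were seen, went from a mean of 0.811 CPM in MEF_fl to 5.43 in Day4_fl_DMSO and 8.76 in Day4_fl_SGC, and rose with SGC0946 in the paired fit (0.71 ± 0.16, adjusted p = 0.00264). Because Bex genes are alike in sequence, reads may have been divided among them.

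Htra1, a secreted protease like Htra3, had a mean of 156 CPM in MEF_fl, 46.6 in Day4_fl_DMSO and 92.1 in Day4_fl_SGC, and rose with SGC0946 in the paired fit (1.00 ± 0.07, edgeR quasi-likelihood adjusted p = 2.3e-10) but not without pairing (0.99 ± 0.39, adjusted p = 0.322). Pde1a, the sister of Pde1b, had 8.74, 3.79 and 7.22 CPM in these groups (paired 0.92 ± 0.16, adjusted p = 0.000172, and 0.0961 without pairing). Both fell from MEFs to day 4 in DMSO, Htra1 by -1.75 ± 0.39 (adjusted p = 0.0062) and Pde1a by -1.20 ± 0.22 (adjusted p = 0.00147), and so resemble Htra3 and Pde1b in direction in all 3 groups. Susd5, of the sushi-domain list, rose with SGC0946 in the paired fit from 0.132 to 0.787 CPM (2.55 ± 0.58, adjusted p = 0.00208) and remained below its MEF_fl level of 2.97 CPM.

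**Figure D4:**
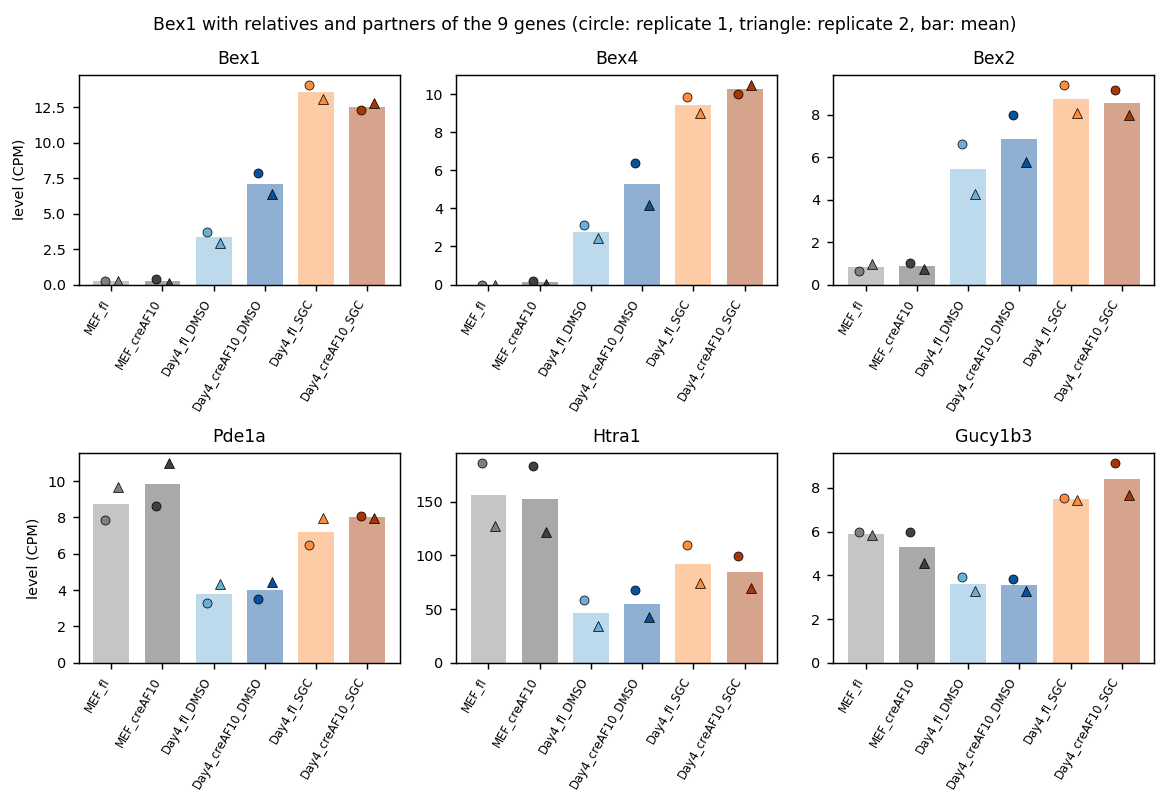
Level in CPM (vertical axis, linear, starting at 0) of Bex1, its relatives Bex4 and Bex2, the relatives Pde1a and Htra1 of 2 other genes, and the guanylate cyclase subunit gene Gucy1b3 in the 6 groups (horizontal axis), with a circle for replicate 1, a triangle for replicate 2 and a bar for their mean. Bex4 and Bex2 climb from MEFs to SGC0946 as Bex1 does, while Pde1a, Htra1 and Gucy1b3 dip on day 4 in DMSO and are higher with SGC0946.

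Mrvi1 and Pde1b act in the cyclic GMP and calcium pathway, so 20 other genes of it were examined, of which 18 passed the filter. With SGC0946 in fl cells 2 rose and none fell without pairing, against 0.883% and 0.23% of all genes, and 3 rose and 1 fell in the paired fit, against 10.6% and 7.1%. DESeq2 called 2 higher and 0 lower, against 1.5% and 0.585%, and 3 of the 18 had an unadjusted p under 0.05 without pairing (edgeR quasi-likelihood test). Gucy1b3, a subunit of the nitric oxide receptor guanylate cyclase, had 3.91 and 3.30 CPM in Day4_fl_DMSO and 7.52 and 7.45 in Day4_fl_SGC (log2 change 1.06 ± 0.20, edgeR quasi-likelihood adjusted p = 0.0404). The natriuretic peptide receptor Npr1 had 0.862 and 1.05 CPM, then 2.68 and 2.77 (1.49 ± 0.29, adjusted p = 0.0432). Gucy1a3, the partner subunit of Gucy1b3, rose in the paired fit (1.03 ± 0.16, adjusted p = 2.06e-05) but not without pairing (adjusted p = 0.107), and Itpr1, the calcium release channel, fell in the paired fit (-0.35 ± 0.07, adjusted p = 0.000608). Prkg1, the cyclic GMP-dependent kinase that acts on the Mrvi1 protein, fell from MEFs to day 4 in DMSO (-2.41 ± 0.18, adjusted p = 6.81e-06) and stood at 7.06 CPM in Day4_fl_DMSO and 8.01 in Day4_fl_SGC (0.18 ± 0.19, adjusted p = 0.763). The median log2 change of the list with SGC0946 was 0.02, against -0.0085 over all genes, and 9 of the 18 were positive.

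Partners of other members were examined in the same way, with a DESeq2 background for SGC0946 in fl cells of 1.5% higher and 0.585% lower. Of 9 ligand and substrate genes listed for Htra proteins, 0 were called with SGC0946 in fl cells without pairing (edgeR quasi-likelihood test, 2 with an unadjusted p under 0.05, and 1 called by DESeq2), and 4 rose and 1 fell when paired, against 10.6% and 7.1% of all genes, among them Tgfb1 (0.87 ± 0.12, edgeR quasi-likelihood adjusted p = 3.67e-06) and Tgfb3 (0.47 ± 0.07, adjusted p = 2.55e-05). Of 11 secreted phospholipase A2 and related ligand genes for Pla2r1, 5 passed the filter and 0 were called without pairing (1 with an unadjusted p under 0.05, 0 by DESeq2), and Pla2g2e, at 0.722 CPM with SGC0946, was the 1 called in the paired fit, against the same shares. Of 9 neurotrophin pathway genes 8 passed the filter, 0 were called without pairing (1 with an unadjusted p under 0.05, 1 called by DESeq2) and 1 rose in the paired fit, where 10.6% of all genes did. This was the receptor Ntrk2, at 3.16 and 8.66 CPM in Day4_fl_DMSO and 15.8 and 21.5 in Day4_fl_SGC (1.67 ± 0.19, adjusted p = 1.73e-05). The neurotrophin receptor Ngfr, with which the Bex1 protein is known to interact, had a mean of 26.6 CPM in Day4_fl_DMSO and 25.8 in Day4_fl_SGC. Of the 9 genes of the DOT1L complex, 0 were called with SGC0946 in either edgeR fit or in DESeq2, and 0 had an unadjusted p under 0.05 without pairing.

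The genes that flank the 9 on the chromosome, by order in RefSeq, give 18 neighbours, of which 12 passed the filter. In fl cells 0 of the 12 were called with SGC0946 without pairing (edgeR quasi-likelihood test, 4 with an unadjusted p under 0.05, 0 called by DESeq2) and 5 in the paired fit, all higher, where 10.6% of all genes were. They were Supt4h1 beside Bzrap1 (0.31 ± 0.08, edgeR quasi-likelihood adjusted p = 0.00456), Ugcg beside Susd1 (0.38 ± 0.07, 0.000106), Ly75 beside Pla2r1 (0.64 ± 0.15, 0.00265), Ppp1r1a beside Pde1b (2.66 ± 0.61, 0.00228) and Sh3tc1 beside Htra3 (1.69 ± 0.38, 0.00177). Ly75 encodes a lectin receptor of the same family as Pla2r1, and Ppp1r1a and Sh3tc1 were low, at 0.132 and 0.465 CPM in DMSO and 0.853 and 1.51 with SGC0946. The other 7 tested neighbours were not called in either fit, and in the paired fit their log2 changes ran from -0.80 in Nckap1l beside Pde1b (adjusted p = 0.152, edgeR quasi-likelihood test) to 0.79 in Gm949 beside 4833403I15Rik (adjusted p = 0.183), with Ctr9 beside Mrvi1 at 0.15 and Acox3 beside Htra3 at -0.07.

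Library totals were 14602536 to 22800753 expected counts. Markers of fibroblasts were present in all groups: the 11 listed summed to 51500 to 70600 CPM in MEFs and 20500 to 22300 on day 4, with little difference between the day 4 groups. Epithelial markers summed to 15.5 to 20.6 CPM in MEF_fl and 18.8 to 23.4 in MEF_creAF10, below every day 4 group. Mrvi1, Chodl, Pla2r1, Pde1b and Htra3 were instead high in MEFs and fell to day 4 in DMSO. Within day 4 the epithelial markers were higher with SGC0946, as the 9 genes were by mean level. They summed to 84.5 to 85.9 CPM in Day4_fl_DMSO, 109 to 113 in Day4_creAF10_DMSO, 166 to 180 in Day4_fl_SGC and 170 to 182 in Day4_creAF10_SGC. Of 9 tested, 4 rose with SGC0946 in fl cells without pairing (edgeR quasi-likelihood test), where 0.883% of all genes did, and 9 in the paired fit, where 10.6% did. DESeq2 called 6 of the list higher, where 1.5% of all genes were. With AF10 deletion in DMSO 0 of the 9 were called without pairing, where 0% of all genes were, though 4 had an unadjusted p under 0.05, 0 in DESeq2, and 4 rose in the paired fit, where 3.37% did. Cdh1, the defining epithelial cadherin, was at 23.4, 37.8, 61.7 and 62.6 CPM in those day 4 groups, and Cldn6 was at 0 in all of them. Within day 4 the 4 reprogramming factors went the other way. They summed to 768 to 782 CPM in Day4_fl_DMSO, 642 to 671 in Day4_creAF10_DMSO, 645 to 671 in Day4_fl_SGC and 579 to 583 in Day4_creAF10_SGC. In MEFs they summed to 178 to 246 CPM. With AF10 deletion in DMSO 0 of the 4 were called without pairing (edgeR quasi-likelihood test, 1 with an unadjusted p under 0.05, 0 called by DESeq2) and 3 fell in the paired fit, where 3.37% of all genes did, Pou5f1 with a log2 change of -0.46 ± 0.09 (adjusted p = 0.00288). With SGC0946 in fl cells 0 of the 4 were called without pairing (0 with an unadjusted p under 0.05, 0 by DESeq2) and 3 fell in the paired fit, where 7.1% did. The part of these 2 lists in the course of the 9 genes was not tested. The 11 neural markers found summed to 87.8 to 151 CPM in Day4_fl_DMSO and 122 to 154 in Day4_fl_SGC, the 10 macrophage and blood markers to 64.2 to 74.6 and 61.8 to 76.6, the 10 skeletal muscle markers to 2.64 to 2.93 and 4.02 to 6.02, the 8 smooth muscle markers to 550 to 572 and 607 to 642, and the 8 endothelial markers to 102 to 124 and 94.0 to 132. In bulk RNA, more cells that express a gene and more RNA per cell cannot be told apart.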

How the data were processed

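Per the file headers, the authors deposited an expected count, a TPM value and an FPKM value for each gene in each of 12 libraries, and FPKM values were not used here. RNA was selected for poly(A) tails, per the labels' protocols. RSEM and Bowtie with mouse build mm9 are named in the submitters' processing notes, without versions or options. Counts were rounded to whole numbers, filterByExpr kept 13936 of 20325 genes, and CPM rests on TMM-scaled totals. A single model of the 6 groups was fitted in edgeR 4.0.16 (R 4.3.3), tested by its robust quasi-likelihood F test and adjusted after Benjamini-Hochberg over the genes kept. A gene was called at an adjusted p under 0.05. DESeq2 1.42.0 served as an alternative. For edgeR, SE is the absolute log2 change over the root of F. Totals per library were 14602536 to 22800753 expected counts.

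The replicate numbers pair the libraries: the correlation of same-numbered deviations from the group means was 0.286 to 0.737 over the 15 pairs of groups, and Y-linked genes had 4035 to 4780 counts in replicate 1 libraries and 8.29 to 51.8 in replicate 2 libraries. Replicate number thus goes with Y-linked RNA in every group. Differences between replicates cannot be told apart from effects of sex or of other differences between the cells. The labels do not name the 2 sources of cells, and p-values measure the spread between these preparations, not between many animals. The paired fit had a replicate block per stage (MEFs or day 4), coded around 0. Both fits were tried on counts simulated once, for AF10 deletion on day 4 in DMSO alone. These counts were drawn from the means and spread of the paired fit itself, which favours that fit. The fit without a block made no false call but found fewer of the changes put in. The paired fit found more of them and made more false calls than its threshold allows, so both are given. For day 4 against MEFs the paired p-values do not measure how alike the 2 sources were.

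The genes described and the lists were chosen with earlier results of these data known. All 9 genes are named, genes of a list up to 4 per comparison by lowest p among those called (not every one that qualifies), and markers and neighbours by level or position. Bex2, Ngfr and the value of Prkg1 with SGC0946 lie outside this rule and were chosen after their values were seen. The rule also names the most alike genes by Pearson's r among genes of at least 1 CPM. A few of the most alike genes are not reported here. Gene names were matched through transcript identifiers, and 19972 of 20325 matched RefSeq. No mm9 genome was used, so coordinates are only those of the RefSeq promoter table (GRCm38.p6).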

Additional observations from a re-analysis of the deposited data

Results flagged for a closer look

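For 2 genes the effect of AF10 deletion differed between day 4 in DMSO and MEFs by the interaction term of the paired fit (edgeR quasi-likelihood test). Day4_fl_DMSO and Day4_creAF10_DMSO, the baselines of the contrasts that picked the genes, enter this term. A low value in Day4_fl_DMSO raises it, and a low value in Day4_creAF10_DMSO lowers it. The difference in log2 change was 1.22 ± 0.30 (SE) in Mrvi1 (adjusted p = 0.0356) and 0.69 ± 0.15 in Htra3 (adjusted p = 0.0121), and 161 genes in all were called. The fit without pairing gave 1.23 ± 0.42 and 0.76 ± 0.96, with adjusted p = 1 for both and 0 genes called. For AF10 deletion with SGC0946 minus MEFs, 0 of the 9 genes were called in either fit. Over all genes 66 were called in the paired fit and 0 without pairing. Day4_fl_SGC and Day4_creAF10_SGC, which also belong to the contrasts that picked the genes, enter that term. The groups hold 2 libraries, too few to look for a library that stands apart within its group.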

How the results depend on the processing

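Pairing by replicate number changed counts most. With a replicate block per stage, 7 in place of 0 of the 9 genes were called for AF10 deletion on day 4 in DMSO, 8 in place of 5 for day 4 with SGC0946 against MEFs in fl cells, and 7 in place of 4 in AF10-deleted cells, and the cause was not tested. A single replicate block shared by all 12 libraries called 0 for AF10 deletion on day 4 in DMSO, where 0% of all genes were called higher and 0.00718% lower. In that fit 6 of the 9 had an unadjusted p under 0.05 (edgeR quasi-likelihood test), with no share of all genes at that limit to set beside it. Other scaling, no filter and DESeq2 left each count within 1.5 times. Leaving out 1 library at a time gave 4 to 7 for day 4 in DMSO against MEFs in fl and also in AF10-deleted cells, 2 to 7 for AF10 deletion on day 4 in DMSO in the paired fit (added after the data were seen), and a median log2 change with SGC0946 of 1.98 to 2.15 in fl and 1.30 to 1.71 in AF10-deleted cells. Of 1377 single-gene values 1265 kept direction and call, 36 moved, 25 became called, 20 lost the call and 31 turned direction.

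Of those that turned, 4833403I15Rik on day 4 in DMSO against MEFs in fl cells was 0.17 with the replicate block per stage. The others turned when 1 library was left out, in values that were not called. For AF10 deletion in MEFs the ranges were -0.77 to 0.73 in Bex1, -0.63 to 0.091 in Mrvi1, -0.50 to 0.22 in Chodl, -0.16 to 0.050 in Pla2r1, -0.59 to 0.30 in Pde1b, -2.86 to 2.11 in 4833403I15Rik and -0.64 to 1.10 in Htra3. On day 4 in DMSO they were -0.33 to 0.15 in Pla2r1 and -0.38 to 0.11 in Pde1b, and in SGC0946 -0.10 to 0.13 in Susd1, -0.22 to 0.37 in Chodl, -0.34 to 0.16 in 4833403I15Rik and -0.79 to 0.17 in Htra3. Against MEFs in DMSO, 4833403I15Rik had -1.48 to 1.84 in fl and -0.28 to 3.20 in AF10-deleted cells. Against MEFs with SGC0946, Pde1b had -0.27 to 0.48 and Htra3 -1.02 to 0.56 in fl cells, and Mrvi1 -0.61 to 0.11 and Chodl -0.58 to 0.017 in AF10-deleted cells. Depth limits Bex1 in MEFs, at 3.16 to 5.59 expected counts per library.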
